A study of Homo sapiens with 24 samples.

Results

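The endoplasmic reticulum (ER) folds the proteins that a cell secretes or places in its membranes, and the 35 genes described here encode the machinery of that compartment: the sensors and transcription factors of the unfolded protein response, the ER chaperones, disulfide isomerases and co-chaperones, 2 secreted ER stress proteins, the factors of ER-associated degradation, and 6 genes of translocation, glycosylation, export and ER calcium. They were listed by name and not by a rule on their values, but with earlier results of these data known. The list was drawn out of 35561 gene names with a matched transcript. All 35 were measured and passed the filter on low values in both experiments. RNA came from A549, a human lung adenocarcinoma cell line labelled as lung epithelial and of wild-type genotype, and was sequenced after polyA selection. In whole cells there were 4 groups of 3 libraries, one from each of the batches A, B and C: TAOK2 siRNA, a pool of siRNAs against the kinase TAOK2; compound 2, a code name that the labels give as an inhibitor of the TAOK2 kinase with no dose or time; control siRNA, a non-targeting pool; and DMSO, the vehicle. In a second experiment total, nuclear and cytoplasmic RNA came from cells given TAOK2 siRNA or control siRNA, with 2 libraries in each of these 6 groups, from batches 1 and 2. Each whole-cell library is titled as mock, in all 4 groups alike, whereas no library of the second experiment is. The titles do not explain this term, and its part in any difference between the experiments was not tested. The siRNA pools were used at 30 nM in a lipid reverse transfection. No group is a clone or a stable line, and whether the libraries of a batch came from separate cultures is not stated, so p-values measure the spread between these libraries only.

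The unfolded protein response starts at 3 sensors in the ER membrane. IRE1, the product of ERN1, cuts a short intron out of XBP1 messenger RNA, and the spliced message encodes an active transcription factor. PERK, the product of EIF2AK3, phosphorylates the translation factor eIF2alpha and so favours translation of ATF4, whose targets include DDIT3, the gene of the factor CHOP. ATF6 moves to the Golgi, is cut there and releases a transcription factor that acts on promoters of ER chaperone genes such as HSPA5. Secretory epithelial cells depend on these arms to match folding capacity to load.

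The XBP1 intron separates the 2 coding forms of the message, and its sequence is shown because the transcript results below turn on it. In the GENCODE 29 annotation of GRCh38 the 26 bases lie at chr22:28796122-28796147 on the minus strand, inside the coding part of XBP1-201. The transcript models are shown around this position with 15 bases on each side, 5′ to 3′, with the intron in capitals.
XBP1-201: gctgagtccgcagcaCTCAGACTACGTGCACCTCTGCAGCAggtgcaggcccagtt
XBP1-202: gctgagtccgcagcaggtgcaggcccagtt
XBP1-201 encodes 261 codons and XBP1-202 encodes 376.

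Some promoters of these genes hold elements named for the ER stress response. The list names genes of that same response, so the counts below are a description and not an independent test. RefSeq promoters on GRCh38.p14, each running from 250 bases before the start to 50 bases after it, were found for 32 of the 35 genes. The ER stress response element, CCAAT and CCACG separated by 9 bases and read on both strands, was present in 8 of the 32 (25.0%), against 25 of 27305 genes (0.0916%) and 27 of 35116 promoters (0.0769%). The 8 were HSPA5, HSP90B1, CALR, CANX, PDIA6, ERO1B, CRELD2 and XBP1. ER stress response element II, ATTGG and CCACG separated by 1 base, was present in HERPUD1, HYOU1 and SDF2L1, or 9.38%, against 0.0696% of genes and 0.0541% of promoters. The UPR element core, TGACGTGG, was found in HYOU1 alone (3.12%, against 0.927% of genes and 0.729% of promoters), where it overlaps a copy of element II. The amino acid response element core, TGATG and AA separated by 1 base, was found in CREB3L2 and HERPUD1 (6.25%, against 4.46% of genes and 3.62% of promoters). A match is a description of the letters and not a measured binding site. Examples of both ER stress elements are given with 6 bases on each side, the element in capitals, at chr9:125241391-125241409 (minus), chr12:103930216-103930234 (plus), chr22:28800603-28800621 (minus), chr2:10812853-10812871 (minus) and chr16:56932025-56932035 (plus) in this order.
HSPA5: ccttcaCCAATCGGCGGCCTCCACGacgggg
HSP90B1: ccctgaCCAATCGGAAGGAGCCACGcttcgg
XBP1: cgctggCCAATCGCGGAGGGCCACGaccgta
PDIA6: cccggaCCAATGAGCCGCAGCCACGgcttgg
HERPUD1: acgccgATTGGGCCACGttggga
HSPA5 encodes BiP, the main HSP70 chaperone of the ER, and the end of its promoter at chr9:125241344-125241593 on the minus strand (250 bases, with the element in capitals) held 4 CCAAT boxes in either orientation.
HSPA5 promoter: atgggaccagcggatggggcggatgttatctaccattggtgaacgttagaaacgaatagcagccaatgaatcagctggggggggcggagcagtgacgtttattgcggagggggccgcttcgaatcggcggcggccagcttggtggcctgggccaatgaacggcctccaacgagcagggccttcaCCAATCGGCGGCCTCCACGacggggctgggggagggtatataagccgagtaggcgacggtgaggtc

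Levels are given in TPM, summed over the transcripts of a gene. This unit corrects for transcript length and sums to the same total in every library, so it keeps no depth. In bulk RNA fewer cells and less RNA per cell cannot be told apart. The 35 genes together took 4494.85 to 5714.59 TPM in whole cells, or 0.449% to 0.571% of all transcripts. TAOK2 itself was at 10.6, 12.5 and 8.56 TPM with TAOK2 siRNA in batches A, B and C, against 40.3, 38.2 and 34.3 TPM with control siRNA (log2 change -1.75, adjusted p = 2.3e-05). It was at 21.5, 30.7 and 20.5 TPM with compound 2 and at 39.7, 40.6 and 37.5 TPM with DMSO. In the fractionation experiment TAOK2 was at 3.67 and 2.99 TPM in total, 9.68 and 6.24 TPM in nuclear and 2.41 and 0.728 TPM in cytoplasmic RNA with TAOK2 siRNA, against 9.70 and 5.01, 15.6 and 9.31, and 7.63 and 3.37 TPM with control siRNA. Of 6 epithelial marker genes, all exceeded 1 TPM in every whole-cell library, with a sum of 6374 to 9521 TPM, while 0 of 4 endothelial, 1 of 5 leukocyte and 1 of 5 fibroblast markers did, with sums of at most 1.24, 8.45 and 31.5 TPM. In the fractions 5 of the 6 epithelial markers did so, with a sum of 2764 to 5653 TPM. There 0 of 4 endothelial, 2 of 5 leukocyte and 2 of 5 fibroblast markers did, with sums of at most 6.13, 65.5 and 51.0 TPM. The highest single leukocyte marker reached 54.1 TPM.

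Under compound 2 the chaperones HSPA5, HSP90B1 and CALR and the isomerases PDIA3 and PDIA6 were higher than with DMSO, and the sensors ATF6 and EIF2AK3, the factor XBP1, the co-chaperone DNAJB9 and 5 of 7 degradation genes were lower. By limma on log2(TPM + 1), with p-values adjusted over all 13106 genes tested and a threshold of 0.05, 10 of the 35 genes rose and 11 fell. Of all genes, 12% rose and 51.8% fell. The median change was 0.08 for the 35 genes and -0.31 for all genes, so on this scale an average gene fell. After each library was centred on its median change, an alternative added after the data were seen, 21 of the 35 rose and 6 fell, and with library medians set equal 25 rose and 4 fell. Both settings shift every gene, so the 12% and 51.8% of all genes do not apply to these counts. Each of the 21 calls had the same sign in all 3 batches, and for 20 of them the compound 2 libraries did not overlap the DMSO libraries. CALR was the exception. Such separation was common: of all genes 12.4% lay wholly above DMSO and 51.2% wholly below, and of the 35 genes, called or not, 10 and 11. Leaving out 1 library ended the call of ERO1A in 4 of 6 fits, that of CALR in 3 and that of OSTC in 1.

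**Figure D1:**
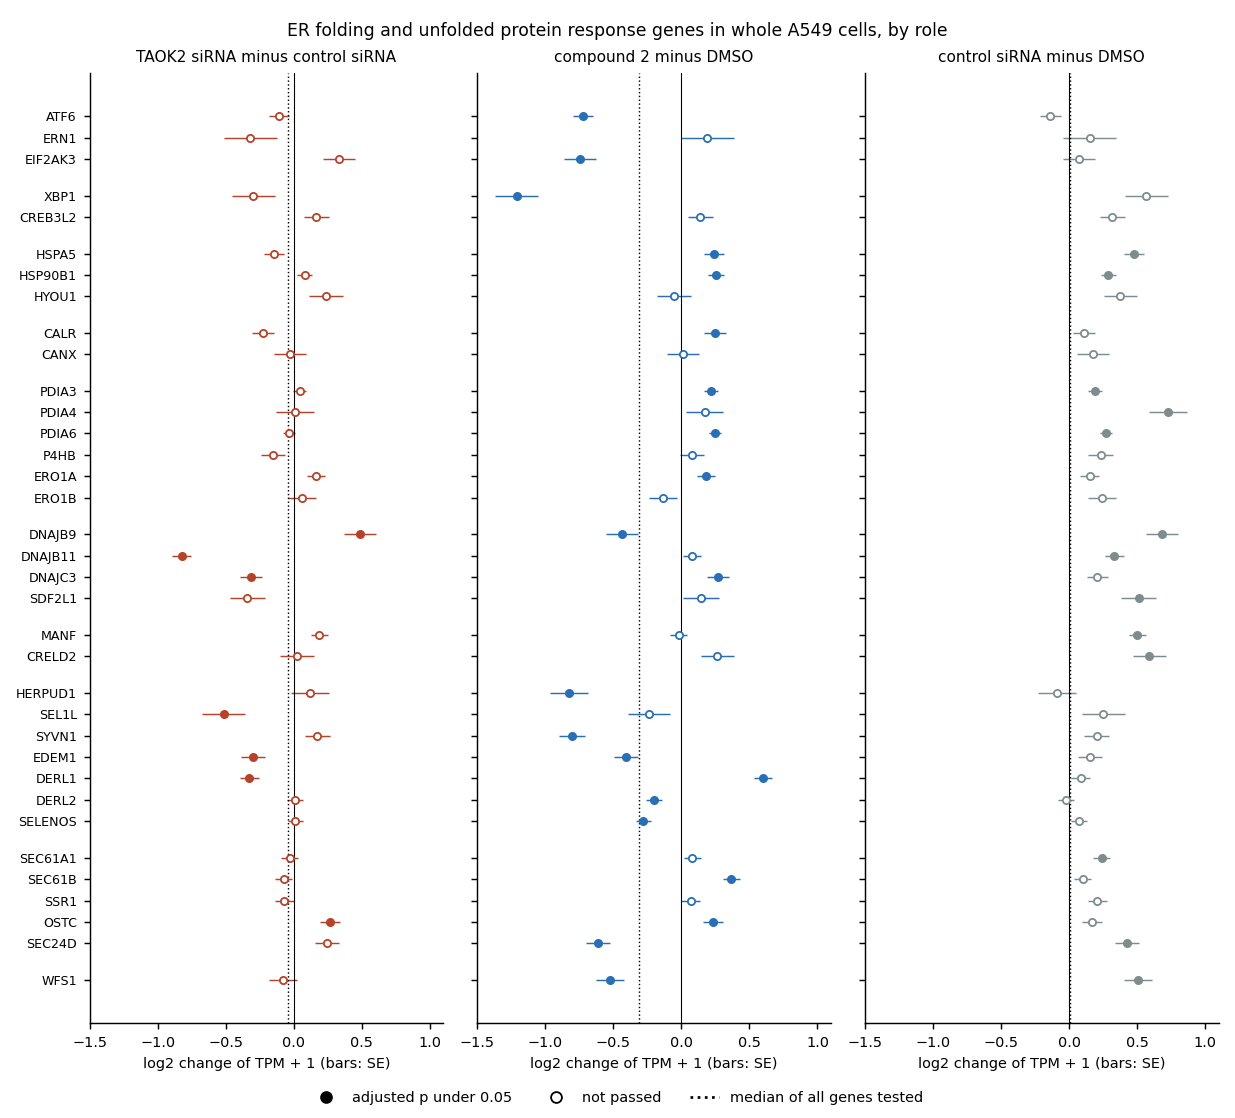
Log2 change of TPM + 1 for the 35 genes, ordered by role, with bars for the standard error; panels show TAOK2 siRNA against control siRNA, compound 2 against DMSO and control siRNA against DMSO, filled points passed an adjusted p of 0.05, and the dotted line is the median of all genes tested. Under compound 2 the points run between -1.21 for XBP1 and 0.60 for DERL1, while 32 of the 35 points of control siRNA against DMSO lie above 0.

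Among the sensors, ATF6 was at 11.99, 10.7 and 11.4 TPM with compound 2, against 20.9, 18.6 and 18.7 TPM with DMSO. The groups did not overlap, and the log2 change was -0.72 (SE 0.07, adjusted p = 3.3e-06). EIF2AK3, the gene of PERK, was at 3.73, 5.48 and 3.97 TPM with compound 2 and at 7.55, 8.31 and 7.98 TPM with DMSO (log2 change -0.74, SE 0.12, adjusted p = 0.00012). ERN1, the gene of IRE1, was at 24.8, 21.6 and 15.7 TPM with compound 2 and at 23.7, 15.4 and 15.3 TPM with DMSO, groups that overlapped (0.19, SE 0.20, adjusted p = 0.42). With library medians set equal ATF6 stayed past the threshold (-0.21, adjusted p = 0.045) and EIF2AK3 did not (-0.23, adjusted p = 0.053).

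XBP1 had the largest change of the 35 genes under compound 2. Its level was 36.8, 49.8 and 32.8 TPM with compound 2, against 99.1, 85.9 and 91.7 TPM with DMSO. The lowest DMSO library was above the highest compound 2 library, and the log2 change was -1.21 (SE 0.16, adjusted p = 2.9e-05), or -0.86 after centring on the median change. CREB3L2, a membrane-bound factor related to ATF6 that acts in cells with a high secretory load, did not pass (0.14, adjusted p = 0.2).

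The HSP70, HSP90 and lectin chaperones that passed rose, and of the co-chaperones DNAJC3 rose while DNAJB9, described below, fell. HSPA5 was at 425.6, 427.3 and 409.5 TPM with compound 2, against 369.5, 355.0 and 345.4 TPM with DMSO. Every compound 2 library was above every DMSO library, and the log2 change was 0.24 (SE 0.07, adjusted p = 0.012). HSP90B1, the ER member of the HSP90 family, rose by 0.25 (adjusted p = 0.0018), CALR, a lectin chaperone that binds calcium, by 0.25 (adjusted p = 0.016), and DNAJC3, a co-chaperone of BiP, by 0.27 (adjusted p = 0.0095). PDIA6, a disulfide isomerase that also acts on IRE1 and PERK, was at 351.3, 349.4 and 353.1 TPM with compound 2 and at 292.4, 296.8 and 298.2 TPM with DMSO (0.25, SE 0.05, adjusted p = 0.00045). PDIA3, the isomerase that works with the lectin chaperones, and ERO1A, an oxidase that recharges isomerases, rose by 0.22 and 0.18 (adjusted p = 0.0024 and 0.033). HYOU1 (a large HSP70-like chaperone), CANX (the membrane-bound lectin chaperone), PDIA4, P4HB, ERO1B, DNAJB11, SDF2L1, MANF and CRELD2 did not pass.

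**Figure D2:**
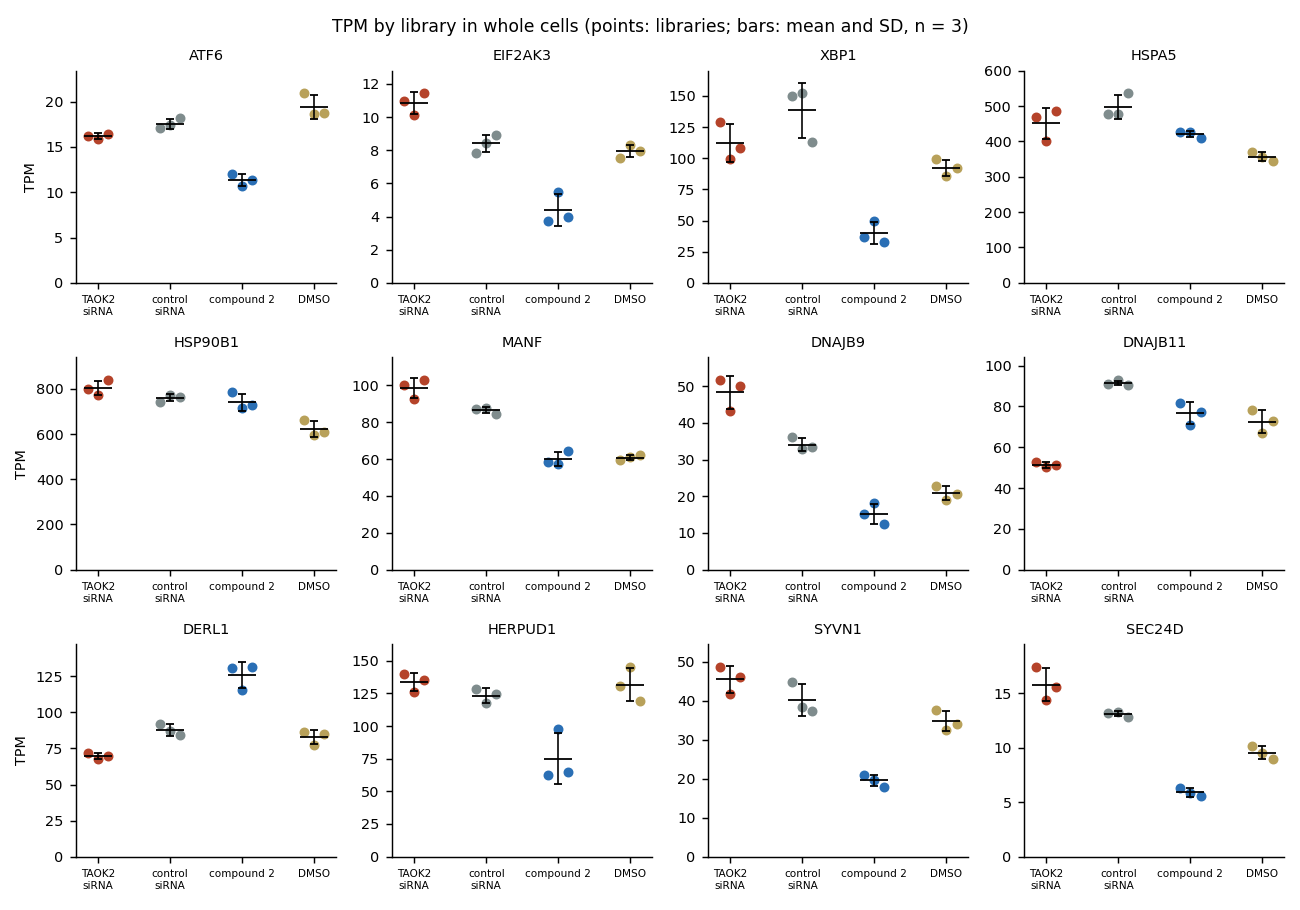
TPM of 12 ER genes in each whole-cell library, with the mean and SD of each group of 3 (points are libraries, each vertical axis starts at 0). The lowest XBP1 points are those of compound 2, at 32.8 to 49.8 TPM, and DNAJB11 is at 50.2 to 52.7 TPM with TAOK2 siRNA and above 66 TPM in every other library.

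Genes of ER-associated degradation, which pulls misfolded proteins back into the cytosol for the proteasome, mostly fell: 5 of 7 were lower and 1 was higher, with a median of -0.28, close to that of all genes. SYVN1, the ubiquitin ligase HRD1 at the centre of this pathway, was at 21.0, 19.6 and 17.9 TPM with compound 2, against 37.6, 32.6 and 34.1 TPM with DMSO (log2 change -0.80, SE 0.09, adjusted p = 9.4e-06). HERPUD1, which helps assemble the ligase complex, was at 62.4, 98.0 and 64.9 TPM with compound 2, against 130.8, 145.2 and 119.5 TPM with DMSO (-0.83, SE 0.14, adjusted p = 0.00023). In both genes the groups did not overlap, although the batch B library of compound 2 stood well above the other two for HERPUD1. EDEM1, a lectin that hands glycoproteins to the pathway, was at 13.0, 13.5 and 13.7 TPM with compound 2 and at 19.2, 17.5 and 17.6 TPM with DMSO (-0.41, adjusted p = 0.0012). SELENOS, a selenoprotein of the retrotranslocation complex, was at 66.4, 68.3 and 74.7 TPM with compound 2 and at 85.9, 84.1 and 84.3 TPM with DMSO (-0.28, adjusted p = 0.00079). DERL2, a derlin of the same complex, fell by 0.20 on the log2 scale (adjusted p = 0.01), and SEL1L, the partner of SYVN1, did not pass (-0.24, adjusted p = 0.2). Against the median change the falls of SELENOS and DERL2 turned into rises of 0.07 and 0.15 that did not pass, and EDEM1 was at -0.06.

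DERL1, another derlin, went the other way. Its level was 131.1, 115.5 and 131.5 TPM with compound 2, against 86.5, 77.1 and 84.7 TPM with DMSO, with no overlap (log2 change 0.60, SE 0.07, adjusted p = 8.3e-06). DNAJB9, a co-chaperone that recruits BiP to IRE1 and aids degradation, was at 15.2, 18.1 and 12.5 TPM with compound 2 and at 22.8, 19.1 and 20.7 TPM with DMSO (-0.44, SE 0.12, adjusted p = 0.0062), and with library medians set equal its change was 0.07.

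Of the genes for entry into and exit from the ER, SEC61B, a small subunit of the translocation channel, was at 240.5, 223.9 and 262.7 TPM with compound 2, against 191.1, 176.6 and 194.9 TPM with DMSO (log2 change 0.37, SE 0.06, adjusted p = 0.00024). SEC24D, a cargo adaptor of the COPII coat, was at 6.28, 5.86 and 5.52 TPM with compound 2, against 10.1, 9.49 and 8.95 TPM with DMSO (-0.61, SE 0.09, adjusted p = 5.9e-05), a fall that did not pass with library medians set equal (-0.10). In neither gene did the groups overlap. WFS1, a membrane protein of ER calcium balance, was at 7.48, 7.03 and 8.22 TPM with compound 2 and at 10.6, 11.0 and 12.6 TPM with DMSO (-0.53, SE 0.10, adjusted p = 0.00065), while its change was -0.18 and did not pass (adjusted p = 0.16) after centring on the median change. OSTC, a subunit of the oligosaccharyltransferase, rose by 0.23 (adjusted p = 0.013), and SEC61A1, the channel itself, and SSR1, of the translocon-associated complex, did not pass.

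The wider pathway was read from lists of other genes. In the PERK and ATF4 arm 1 of 32 genes rose and 21 fell under compound 2, with a median of -0.58. DDIT3 was at 10.7, 20.0 and 10.9 TPM with compound 2, against 156, 137 and 113 TPM with DMSO (log2 change -3.24, adjusted p = 6.3e-08). ATF4 was at 360, 391 and 347 TPM with compound 2 and at 453, 441 and 460 TPM with DMSO (-0.30, adjusted p = 0.00019). The other genes of the arm with the smallest adjusted p were PCK2 (-2.19), CBS (-1.88) and AARS1 (-1.55), which act in amino acid metabolism or charging, and each fell. Of 42 other ER folding factors 5 rose and 12 fell (median -0.10), of 34 other degradation factors 4 rose and 18 fell (-0.24), of 41 other translocation and glycosylation factors 7 rose and 7 fell (0.05), and of 40 other ER to Golgi factors 6 rose and 18 fell (-0.11). These medians lie above the -0.31 of all genes and that of the PERK and ATF4 arm below it, so against the median gene these 4 lists lie on the higher side and the arm on the lower. Single genes of these lists lay far from the medians. DNAJB12, a membrane co-chaperone of the ER (-1.45), EDEM3, a mannosidase of the degradation pathway (-1.90), and SEC16A, which organises ER exit sites (-1.69), fell. SAR1A, of the ER to Golgi list, rose (0.63). Cytosolic chaperones had 10 of 24 genes higher and 4 lower (median 0.18), with HSP90AB1 at 0.48 and TCP1 at 0.39. Of 41 genes of secreted and membrane cargo 9 rose and 8 fell, of 21 other regulators of the response 3 rose and 10 fell, and of 8 ER-phagy receptors 5 fell and none of the 8 rose. Of 10 ER calcium genes 3 fell, of 7 ER stress cell death genes 2 rose and 4 fell, of 10 mitochondrial chaperones and proteases 1 rose and 4 fell, and of 6 genes known from mouse as targets of IRE1-dependent decay 2 fell.

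The whole-cell knockdown changed fewer of the ER genes. Of the 35, 2 rose (DNAJB9 and OSTC) and 5 fell (DNAJB11, DERL1, DNAJC3, EDEM1 and SEL1L) by limma at an adjusted p of 0.05, against 7.78% of all genes that rose and 14.4% that fell. The median change was -0.02 for the 35 and -0.05 for all genes. With the batch as a replicate block 12 passed, 5 higher and 7 lower, adding MANF, SEC24D and EIF2AK3 (adjusted p = 0.038, 0.043 and 0.049) to those that rose and SDF2L1 and CALR (0.012 and 0.018) to those that fell. With library medians set equal the split was 4 higher and 3 lower, and after centring on the median change 4 and 5. The 7.78% and 14.4% of all genes are from the main fit and do not apply to the counts of these other fits. The count was 4 without the control siRNA library of batch A, without that of batch B, or without the TAOK2 siRNA library of batch C. Leaving out 1 library ended the call of EDEM1 in 5 of 6 fits, SEL1L in 4, OSTC in 3 and DNAJC3 in 1.

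DNAJB11, the ER co-chaperone ERdj3 that delivers unfolded proteins to BiP, changed most. It was at 52.6, 50.2 and 51.1 TPM with TAOK2 siRNA, against 90.8, 92.8 and 90.7 TPM with control siRNA. The 3 libraries of each group lay within 3 TPM of each other and far from the other group, and the log2 change was -0.82 (SE 0.07, adjusted p = 2e-05). In the fractionation experiment DNAJB11 was at 58.4 and 77.7 TPM in total RNA with TAOK2 siRNA and at 58.7 and 61.2 TPM with control siRNA, groups that overlapped (0.17, SE 0.20). The fall in whole cells was thus not seen there, and the difference between the experiments was not tested.

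DERL1 was at 72.0, 67.7 and 69.9 TPM with TAOK2 siRNA, against 92.3, 87.3 and 84.1 TPM with control siRNA (log2 change -0.33, SE 0.07, adjusted p = 0.0061). DNAJC3 was at 19.6, 17.9 and 19.2 TPM with TAOK2 siRNA, against 23.6, 23.6 and 23.9 TPM with control siRNA (-0.31, SE 0.08, adjusted p = 0.014). EDEM1 was at 18.3, 14.9 and 15.8 TPM with TAOK2 siRNA, against 21.8, 19.4 and 19.7 TPM with control siRNA (-0.30, SE 0.09, adjusted p = 0.027). In all 3 genes the groups did not overlap. Such separation was common: of all genes 18.0% lay wholly above control siRNA and 29.7% wholly below. Of the 35 genes, called or not, 5 and 8 did so. SEL1L, given in full because it was the seventh to pass, was at 59.4, 52.1 and 51.1 TPM with TAOK2 siRNA and at 92.4, 77.3 and 65.9 TPM with control siRNA (-0.52, SE 0.16, adjusted p = 0.034). DERL1 and SEL1L had negative log2 changes in total RNA too, of -0.42 and -0.38, neither of which passed.

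DNAJB9 was at 51.6, 43.2 and 50.1 TPM with TAOK2 siRNA, against 36.1, 32.8 and 33.4 TPM with control siRNA. The groups did not overlap, and the log2 change was 0.49 (SE 0.12, adjusted p = 0.012). OSTC was at 115.1, 113.4 and 122.5 TPM with TAOK2 siRNA and at 91.3, 98.3 and 102.1 TPM with control siRNA (0.27, SE 0.07, adjusted p = 0.021). Pseudogenes of OSTC were low beside it: OSTCP1 reached 1.19 TPM in whole cells, where OSTC was never below 83.5 TPM.

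The sensors, XBP1 and BiP did not pass under knockdown. ATF6 was at 16.2, 15.9 and 16.5 TPM with TAOK2 siRNA and at 17.0, 17.4 and 18.1 TPM with control siRNA (log2 change -0.11, adjusted p = 0.33). ERN1 was at 19.0, 12.9 and 15.7 TPM with TAOK2 siRNA and at 21.0, 20.8 and 17.9 TPM with control siRNA (-0.32, adjusted p = 0.27). EIF2AK3 was at 11.0, 10.1 and 11.4 TPM with TAOK2 siRNA and at 7.85, 8.46 and 8.91 TPM with control siRNA, with no overlap (0.33, SE 0.12, adjusted p = 0.061, and past the threshold in the block above). XBP1 was at 129.1, 99.2 and 108.0 TPM with TAOK2 siRNA, against 150.2, 152.0 and 112.6 TPM with control siRNA, values that overlapped (-0.30, SE 0.16, adjusted p = 0.2). HSPA5 was at 467.8, 400.0 and 484.8 TPM with TAOK2 siRNA and at 478.3, 478.1 and 535.8 TPM with control siRNA, again overlapping (-0.14, adjusted p = 0.18). None of the 6 isomerases and oxidases passed.

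In the lists beyond the 35 genes the PERK and ATF4 arm had 1 of 32 genes higher and 9 lower under knockdown, with a median of -0.20. DDIT3 was at 84.3, 78.2 and 84.4 TPM with TAOK2 siRNA, against 126, 130 and 139 TPM with control siRNA (log2 change -0.67, adjusted p = 0.029), and ATF4 did not pass (-0.11, adjusted p = 0.13). The other ER folding factors had 5 of 42 higher and 4 lower, including PDIA5 at 0.57 and ERP44, which returns escaped ER proteins from the Golgi, at 0.41. Of the other degradation, translocation and ER to Golgi factors 1 of 34, 2 of 41 and 1 of 40 rose and 4, 6 and 3 fell. RAB1B, a GTPase of transport to the Golgi, fell most among these, with a log2 change of -2.29 (adjusted p = 1.3e-08). Cytosolic chaperones had 9 of 24 genes lower and none of the 24 higher, with CCT2 at -0.62, and mitochondrial chaperones and proteases had 6 of 10 lower and none of the 10 higher, with GRPEL1 at -0.86. Of the ER-phagy receptors 3 of 8 rose, with RETREG1 at 0.84. Of 10 ER calcium genes 3 rose and 1 fell, of 7 cell death genes CASP4 rose (1.24) and TNFRSF10B fell (-0.28), of 6 targets of IRE1-dependent decay 1 rose, of 21 other regulators 2 rose and 6 fell, and of 41 cargo genes 10 rose and 3 fell. The epithelial marker KRT19 rose as well (1.16), and its part was not tested.

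The difference between the knockdown change and the compound 2 change was tested directly, since the pairs of groups share no library. It was past the threshold for 17 of the 35 genes: 9 had a higher knockdown change (ATF6, EIF2AK3, XBP1, DNAJB9, HERPUD1, SYVN1, SELENOS, SEC24D and WFS1) and 8 a lower one (HSPA5, CALR, PDIA6, DNAJB11, DNAJC3, SDF2L1, DERL1 and SEC61B). Among all genes 42.4% were higher and 12.3% lower, with a median difference of 0.30. DNAJB9 differed by 0.93 (SE 0.17), having risen with TAOK2 siRNA and fallen with compound 2. DERL1 differed by -0.93 (SE 0.10) and DNAJC3 by -0.58 (SE 0.11), each having fallen with TAOK2 siRNA and risen with compound 2. These 3 are the genes that passed in opposite directions, and EDEM1, lower in both, had no difference past the threshold. The split became 7 higher and 18 lower after centring on the median change and 5 and 23 with library medians set equal. The 42.4% and 12.3% of all genes are from the main fit and do not apply to these splits. In a fit with the batch as a replicate block 20 differed, adding DERL2 to the higher and PDIA3 and ERN1 to the lower, and those shares do not apply to this count either. With the centring the directions of DNAJB9, DERL1 and DNAJC3 held, while SELENOS was at -0.03.

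Control siRNA and DMSO are both reference groups, and the ER genes differed between them. The difference was positive for 32 of the 35 genes, 13 passed, and all 13 were higher with control siRNA, against 4.32% of all genes that were higher and 2.11% that were lower. The median difference was 0.23 for the 35 genes and 0.01 for all genes. The 13 were HSPA5, HSP90B1, PDIA3, PDIA4, PDIA6, DNAJB9, DNAJB11, SDF2L1, MANF, CRELD2, SEC61A1, SEC24D and WFS1. None of the 7 degradation genes and none of the 3 sensors was among them. Transfection, the siRNA pool and the vehicle differ together between these groups and cannot be told apart. The leukocyte marker CD14 was higher with control siRNA too (1.11, adjusted p = 0.032) and the epithelial marker KRT7 lower (-0.59, adjusted p = 0.021). The leukocyte markers PTPRC and CD3E were at 0.208 to 0.254 TPM and at 0 with control siRNA, and at 0.185 to 0.224 TPM and at 0 with DMSO.

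MANF and PDIA4 are given by library after their values were seen. MANF, a secreted protein released on ER stress, was at 87.1, 87.8 and 84.6 TPM with control siRNA, against 59.3, 60.9 and 62.4 TPM with DMSO (log2 difference 0.50, SE 0.06, adjusted p = 0.0018). PDIA4 was at 70.5, 62.9 and 58.7 TPM with control siRNA, against 40.5, 34.0 and 40.2 TPM with DMSO (0.73, SE 0.14, adjusted p = 0.013). In both genes the groups did not overlap. Of all genes 16.7% lay wholly above DMSO with control siRNA and 13.3% wholly below, and of the 35 genes, called or not, 25 and 1. With the levels given above, HSPA5 differed by 0.48 (SE 0.07, adjusted p = 0.0053) and DNAJB9 by 0.68 (SE 0.12, adjusted p = 0.0086), while XBP1 was at 0.57 and did not pass (adjusted p = 0.054). With the batch as a replicate block XBP1 (adjusted p = 0.029), HYOU1 (0.017) and CREB3L2 (0.036) passed as well, which made 16 genes, all higher with control siRNA. The shares of all genes called, given above, are from the main fit and do not apply to the 16. Of the genes with the ER stress response element shown above, HSPA5, HSP90B1, PDIA6 and CRELD2 passed, XBP1 passed only in the block, and CALR, CANX and ERO1B passed in neither fit.

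Of the other ER folding factors 5 of 42 were higher with control siRNA and none of the 42 was lower, among them PDIA5 (0.42) and MESD (0.36), a chaperone of LDL receptor family proteins. The PERK and ATF4 arm had none of its 32 genes higher and 2 lower (ATF5 at -0.39 and SLC3A2 at -0.32). Of 24 cytosolic chaperones HSPA8 (0.65) and DNAJA1 (0.45) were higher. The count of 13 rests on the number of libraries: it was 3 without the control siRNA library of batch A or of batch B, and 8, 5 and 7 without the DMSO library of batch A, B and C. Leaving out 1 library ended the calls of SEC61A1 and PDIA3 in 6 of 6 fits, while those of HSPA5 and MANF held in all 6.

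Transcripts within a gene were compared by their share of the gene's TPM, as log2 odds. Compound 2 changed this share for 22 of 73 transcripts of the 35 genes, 10 higher and 12 lower, against 35.2% of all 32174 transcripts tested. TAOK2 siRNA changed it for none of the 73 (0.0342% of all, smallest adjusted p = 0.2 for SDF2L1-201), and control siRNA against DMSO for none either (0.00311% of all). The count under compound 2 was 14 without the DMSO library of batch B.

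ERN1 was the extreme case. ERN1-201, the full-length model with 22 exons and 977 codons, was at 1.45, 1.34 and 0.992 TPM with compound 2, against 17.7, 11.2 and 10.9 TPM with DMSO. ERN1-208, a model of 1 exon and 70 codons that ends with 97.7% of the gene still to come, was at 16.7, 12.4 and 9.09 TPM with compound 2, against 3.34, 2.20 and 2.55 TPM with DMSO. The full-length model thus made up 6.12% of ERN1 with compound 2 and 72.8% with DMSO, with no overlap of the groups in either transcript. The log2 odds changed by -4.82 (SE 0.13, adjusted p = 4.2e-09) for ERN1-201 and by 2.90 (SE 0.18, adjusted p = 4.5e-07) for ERN1-208.

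CREB3L2 and EDEM1 showed the same kind of shift. CREB3L2-201, the full-length model, was at 5.31, 7.46 and 5.50 TPM with compound 2, against 10.0, 10.4 and 9.92 TPM with DMSO, and its share was 50.6% with compound 2 and 94.0% with DMSO (log2 odds -3.19, adjusted p = 2e-06). CREB3L2-203, a model of 4 exons, was at 4.67, 2.47 and 3.29 TPM with compound 2 and at 0, 0.405 and 0 TPM with DMSO. EDEM1-201 was at 7.06, 7.58 and 7.62 TPM with compound 2, against 14.99, 15.1 and 13.9 TPM with DMSO (-1.69, adjusted p = 0.0019). EDEM1-206, a retained-intron model, was at 4.32, 4.52 and 4.65 TPM with compound 2, against 0.663, 0.136 and 0.467 TPM with DMSO (3.43, adjusted p = 7.3e-05). For both genes the summed level therefore understates the fall of the full-length coding model: that of CREB3L2 did not pass as a whole, while its coding model had no overlap between groups.

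**Figure D3:**
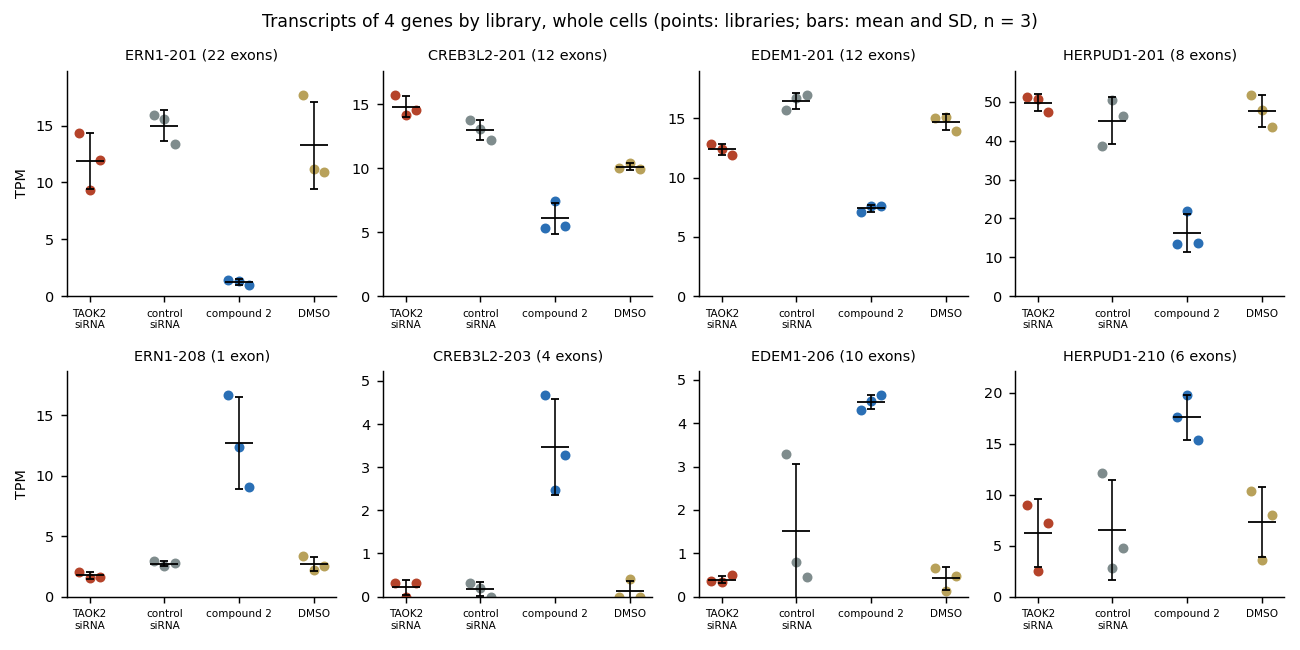
TPM of full-length and other transcript models of 4 ER genes in each whole-cell library, with the mean and SD of each group of 3 (each vertical axis starts at 0). ERN1-201 lies at 0.992 to 1.45 TPM with compound 2 and at 10.9 TPM or more with DMSO, while ERN1-208 and EDEM1-206 are highest with compound 2.

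Other models with a lower share under compound 2 included EIF2AK3-201 (log2 odds -1.74), XBP1-201 (-1.34), HERPUD1-201 (-1.02), SEC24D-201 (-1.001), ERO1A-201 (-0.99) and SYVN1-201 (-0.58). HERPUD1-210, a model annotated for nonsense-mediated decay, was at 17.6, 19.8 and 15.4 TPM with compound 2, against 10.3, 3.602 and 8.02 TPM with DMSO (2.46, adjusted p = 0.0053). By position, 8 of the 10 models with a higher share ended more than 10% of the gene's span before its 3′ end, against 1 of the 12 with a lower share and 32 of the 73 tested (43.8%). Among all transcripts tested 61.2% of those with a higher share did so, 22.2% of those with a lower share and 40.2% of all tested, so the pattern was not confined to the ER genes. The 10% limit was set after the data were seen.

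XBP1 splicing was read from the coding models with and without the 26-base intron printed above. With TAOK2 siRNA the spliced models made up 17.9%, 17.0% and 20.2% of XBP1 coding TPM in batches A, B and C, and with control siRNA 18.1%, 17.2% and 13.5%. The share averaged 18.4% ± 1.64 with TAOK2 siRNA and 16.3% ± 2.43 with control siRNA (SD, n = 3 each), and the groups overlapped (exact permutation test, two-sided p = 0.5). With compound 2 it was 2.83%, 5.08% and 6.55%, against 5.97%, 3.16% and 7.37% with DMSO, which also overlapped. The means were 4.82% ± 1.87 with compound 2 and 5.50% ± 2.15 with DMSO (SD, n = 3 each, exact permutation p = 0.7). Control siRNA stood 10.8 percentage points above DMSO, and every library of control siRNA was above every library of DMSO, for which 3 against 3 libraries give the smallest two-sided p that the exact permutation test allows, 0.1.

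As levels, spliced XBP1 was at 22.1, 16.3 and 21.0 TPM with TAOK2 siRNA and at 25.7, 24.7 and 14.8 TPM with control siRNA. It was at 0.821, 2.32 and 1.82 TPM with compound 2 and at 5.69, 2.55 and 6.54 TPM with DMSO, and in each batch the compound 2 library was the lower. The unspliced coding models were lower with compound 2 as well, and averaged 32.5 ± 9.43 TPM with compound 2 and 83.3 ± 5.79 TPM with DMSO (SD, n = 3 each). The coding models also differ at their outer ends, and TPM does not show how firmly reads were assigned between them. In the log2 odds test, XBP1-202 differed between control siRNA and DMSO by 1.68 without passing (adjusted p = 0.33).

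**Figure D4:**
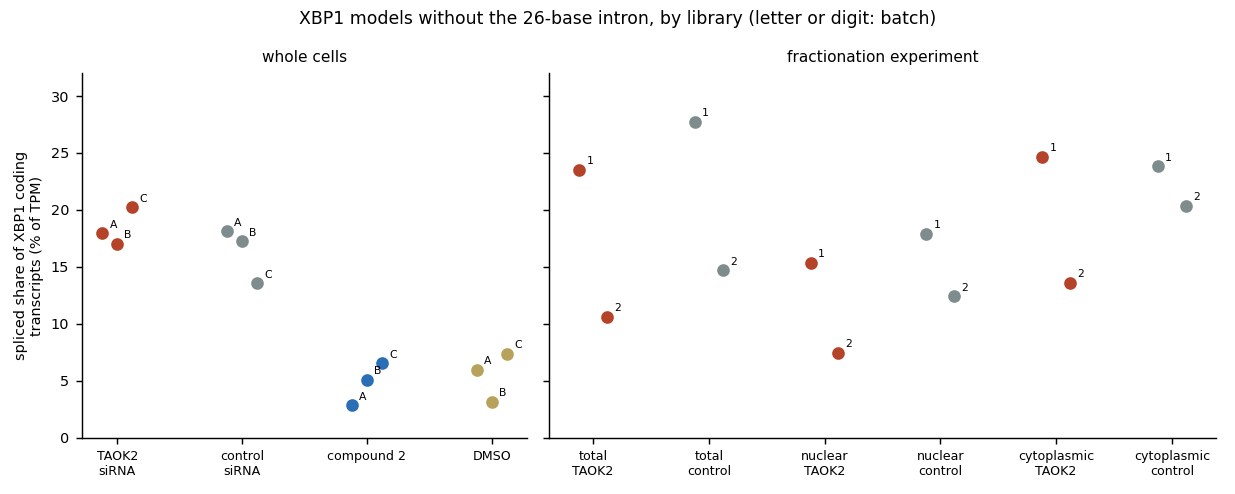
Share of XBP1 coding TPM in models without the 26-base intron, in percent, by library; letters or digits mark the batch, whole cells on the left and RNA fractions on the right. Both siRNA groups lie at 13.5% to 20.2% in whole cells and the compound 2 and DMSO groups at 2.83% to 7.37%.

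In the fractionation experiment the spliced share was 23.5% and 10.6% in total RNA with TAOK2 siRNA (batches 1 and 2) and 27.7% and 14.7% with control siRNA. In nuclear RNA it was 15.4% and 7.45% with TAOK2 siRNA and 17.9% and 12.4% with control siRNA, and in cytoplasmic RNA 24.7% and 13.6% with TAOK2 siRNA and 23.8% and 20.4% with control siRNA. Batch 1 was above batch 2 in each of these pairs, and the part of the batch was not tested. The spliced form was carried by XBP1-207 in this table and by XBP1-202 in whole cells, so levels of single models are not set across the tables.

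In the main fit, which left out the batch, TAOK2 siRNA against control siRNA gave no call among the 35 genes in total, nuclear or cytoplasmic RNA. Of all 13751 genes tested 0.00%, 0.0145% and 0.00% passed by limma in these fractions, and at an unadjusted p under 0.05 there were 2, 2 and 4 of the 35 genes and 917, 1328 and 933 of all genes. With the batch as a replicate block PDIA6 (log2 change 0.57, adjusted p = 0.015) and CALR (0.53, adjusted p = 0.025) rose in nuclear RNA, and in cytoplasmic RNA CANX rose (1.21, adjusted p = 0.013) and ERO1B fell (-0.84, adjusted p = 0.049). The shares of all genes above are from the fit without the batch and do not apply to these calls. CANX was at 143.7 and 74.4 TPM in cytoplasmic RNA with TAOK2 siRNA, against 45.5 and 42.8 TPM with control siRNA. Its main coding model, CANX-201, was at 20.5 and 34.1 TPM with TAOK2 siRNA and at 18.7 and 29.6 TPM with control siRNA, so most of the difference lay in other models. Among these, CANX-209 was at 54.7 TPM in batch 1 and 0.352 TPM in batch 2 with TAOK2 siRNA and at 0.119 and 0.182 TPM with control siRNA. Models of CANX differed between batches in this table, and its sum may carry error in how reads were assigned. The effect of knockdown on the nuclear minus cytoplasmic difference passed for none of the 35 genes and for 0.00% of all genes, with 0 of the 35 and 184 of all genes at an unadjusted p under 0.05.

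All 35 genes were measured in both nuclear and cytoplasmic RNA. With either siRNA SEC61B, SSR1, OSTC and SELENOS were among those lower in nuclear RNA, and ERN1, PDIA4, EDEM1 and SEC24D were higher there. With TAOK2 siRNA 4 of the 35 genes were higher in nuclear RNA and 12 lower, against 28.6% and 16.6% of all genes, with medians of -0.38 and 0.23. With control siRNA 5 were higher and 16 lower, against 29.8% and 18.9% of all genes, with medians of -0.51 and 0.21. With library medians set equal 3 were higher and 18 lower for TAOK2 siRNA, and 2 were higher and 22 lower for control siRNA. Fitting only the groups compared left 4 of the 16 calls with TAOK2 siRNA, those of SEC61B, SSR1, SELENOS and DERL1, all lower. With the batch as a replicate block 23 genes passed with TAOK2 siRNA, 5 higher and 18 lower, and 25 with control siRNA, 6 higher and 19 lower. The shares of all genes above are from the main fit and do not apply to the counts of these other fits. TPM within each fraction is a share of that fraction, so a higher value is not a larger number of molecules in the nucleus.

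SEC61B was at 58.6 and 74.3 TPM in nuclear and at 310.9 and 209.7 TPM in cytoplasmic RNA with TAOK2 siRNA, and at 52.2 and 50.3 TPM in nuclear and 208.8 and 180.6 TPM in cytoplasmic RNA with control siRNA. Its log2 difference was -1.94 with TAOK2 siRNA and -1.90 with control siRNA (adjusted p = 0.0015 and 0.0013). SSR1 was at 45.0 and 53.6 TPM in nuclear and 122.6 and 176.0 TPM in cytoplasmic RNA with TAOK2 siRNA, and at 38.8 and 46.4 TPM in nuclear and 133.9 and 148.1 TPM in cytoplasmic RNA with control siRNA (-1.56 and -1.71). In these genes every nuclear library was below every cytoplasmic one. OSTC was at 76.0 and 121.3 TPM in nuclear and 206.8 and 376.0 TPM in cytoplasmic RNA with TAOK2 siRNA, and at 66.9 and 107.0 TPM in nuclear and 237.4 and 323.8 TPM in cytoplasmic RNA with control siRNA (-1.53 and -1.70). SELENOS was at 53.9 and 56.8 TPM in nuclear and 139.5 and 157.5 TPM in cytoplasmic RNA with TAOK2 siRNA, and at 45.0 and 50.9 TPM in nuclear and 139.3 and 148.8 TPM in cytoplasmic RNA with control siRNA (-1.41 and -1.57). DNAJB9 was at 27.9 and 36.9 TPM in nuclear and 50.9 and 93.4 TPM in cytoplasmic RNA with TAOK2 siRNA, and at 26.2 and 36.6 TPM in nuclear and 74.3 and 102.8 TPM in cytoplasmic RNA with control siRNA (-1.08 and -1.47). These 3 passed with either siRNA and had no overlap between the fractions. Such separation was common with 2 libraries a group. Of all genes 41.9% lay wholly higher in nuclear RNA and 26.3% wholly lower with TAOK2 siRNA, and 44.7% and 31.5% with control siRNA. Of the 35 genes, called or not, 8 and 17 did so with TAOK2 siRNA, and 6 and 22 with control siRNA.

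PDIA4 was at 17.6 and 18.3 TPM in nuclear and 10.1 and 6.76 TPM in cytoplasmic RNA with TAOK2 siRNA, and at 14.98 and 15.99 TPM in nuclear and 4.83 and 6.06 TPM in cytoplasmic RNA with control siRNA (log2 difference 1.03 and 1.36). ERN1 was at 17.3 and 16.1 TPM in nuclear and 8.90 and 8.67 TPM in cytoplasmic RNA with TAOK2 siRNA, and at 21.0 and 18.6 TPM in nuclear and 11.1 and 10.4 TPM in cytoplasmic RNA with control siRNA (0.85 and 0.82). The nuclear libraries of both genes were all above the cytoplasmic ones. EDEM1 was at 35.5 and 51.0 TPM in nuclear and 17.7 and 22.5 TPM in cytoplasmic RNA with TAOK2 siRNA, and at 36.8 and 50.2 TPM in nuclear and 25.4 and 23.8 TPM in cytoplasmic RNA with control siRNA (1.05 and 0.78). SEC24D was at 33.4 and 37.1 TPM in nuclear and 11.9 and 18.8 TPM in cytoplasmic RNA with TAOK2 siRNA, and at 27.4 and 32.1 TPM in nuclear and 15.9 and 19.9 TPM in cytoplasmic RNA with control siRNA (1.18 and 0.71). EIF2AK3 was at 7.13 and 11.6 TPM in nuclear and 6.92 and 5.08 TPM in cytoplasmic RNA with TAOK2 siRNA, and at 6.34 and 12.2 TPM in nuclear and 3.85 and 3.70 TPM in cytoplasmic RNA with control siRNA. Its difference was 0.54 with TAOK2 siRNA (adjusted p = 0.2) and 1.04 with control siRNA (adjusted p = 0.026), and the test of the knockdown effect above did not call the contrast between the siRNAs.

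**Figure D5:**
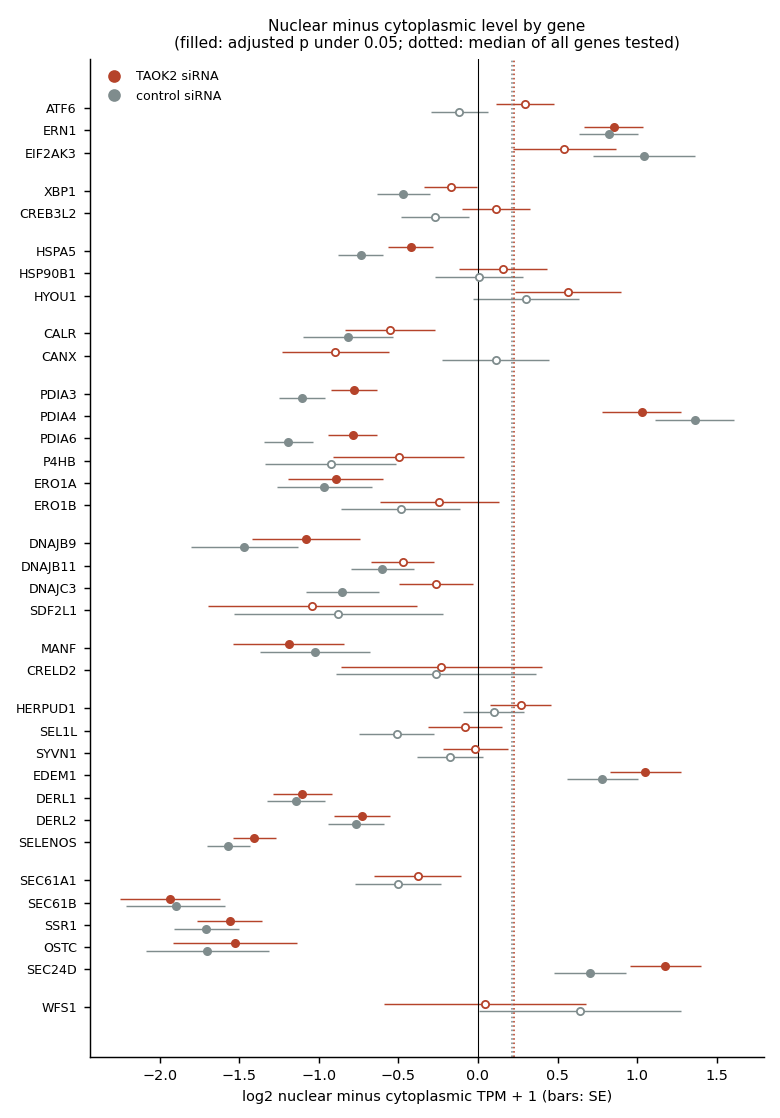
Nuclear minus cytoplasmic difference of log2(TPM + 1) for each of the 35 genes with TAOK2 siRNA and with control siRNA; filled points passed an adjusted p of 0.05 and dotted lines are the medians of all genes tested. SEC61B lies lowest at about -1.9 with either siRNA, and PDIA4 highest with control siRNA at 1.36.

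Retained-intron models made up much of the nuclear RNA of some members. Over the 35 genes such models held 18.2% and 20.1% of nuclear TPM with TAOK2 siRNA and 21.0% and 24.6% with control siRNA, and 6.62% and 7.56% of cytoplasmic TPM with TAOK2 siRNA and 9.76% and 8.51% with control siRNA. Over all genes they held 7.47% to 9.91% in nuclear and 3.63% to 4.03% in cytoplasmic RNA. In total RNA of this experiment they held 8.67% to 15.1% over the 35 genes and 5.55% to 6.60% over all genes. In the whole-cell experiment the order was reversed, with 1.84% to 3.16% over the 35 genes and 4.36% to 5.11% over all genes. This difference between the experiments was not tested. PDIA4 had 75.8% of its nuclear and 3.11% of its cytoplasmic TPM in such models with control siRNA, EDEM1 42.1% and 0.746%, XBP1 35.3% and 0.373%, and EIF2AK3 33.7% and 2.16%. Other members had such models in both fractions: P4HB had 45.8% of its nuclear and 40.5% of its cytoplasmic TPM in them with control siRNA, DERL2 48.9% and 44.1%, and MANF 54.2% and 18.9%. P4HB and HSP90B1 are abundant, so both weigh on the sums over the 35 genes. HSP90B1 had 31.5% of its nuclear and 2.16% of its cytoplasmic TPM in such models with control siRNA. The coding models of P4HB differed between batches, with P4HB-214 at 0 in every library of batch 2. With protein-coding transcripts alone the difference of PDIA4 turned to -0.56 with TAOK2 siRNA and -0.39 with control siRNA, and that of EDEM1 to -0.04 with control siRNA. XBP1-206, a model that keeps an intron, was at 30.2 and 38.8 TPM in nuclear and 0.219 and 0.280 TPM in cytoplasmic RNA with TAOK2 siRNA, and at 40.9 and 54.6 TPM in nuclear and 0.756 and 0.911 TPM in cytoplasmic RNA with control siRNA.

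The chaperones HSPA5, PDIA3 and PDIA6 were lower in nuclear RNA with either siRNA. HSPA5 was at 185.8 and 194.1 TPM in nuclear and 237.7 and 273.4 TPM in cytoplasmic RNA with TAOK2 siRNA, and at 179.4 and 187.7 TPM in nuclear and 295.6 and 318.0 TPM in cytoplasmic RNA with control siRNA (log2 difference -0.42 and -0.74, adjusted p = 0.037 and 0.0027). DERL1, DERL2, MANF and ERO1A passed on the same side with both siRNAs, while DNAJC3, DNAJB11, CALR and XBP1 did so with control siRNA. Some of these differences leaned on single libraries. With 1 library left out, the control siRNA difference ran from -0.61 to -0.33 for XBP1 and from -0.82 to -0.39 for DNAJB11. It ran from -1.04 to -0.60 for CALR and from -1.31 to -0.74 for MANF, against -1.66 to -1.48 for SELENOS. Under the replicate block DNAJB11 (-0.47, adjusted p = 0.0065) and CALR (-0.55, adjusted p = 0.0013) passed with TAOK2 siRNA too, as did SEC61A1 and P4HB with either siRNA, CANX and SDF2L1 with TAOK2 siRNA and ERO1B with control siRNA, all lower in nuclear RNA. HYOU1 with TAOK2 siRNA (0.57) and WFS1 with control siRNA (0.64) passed as higher. Other ER lists had lower medians in nuclear RNA too: with control siRNA 25 of 41 other translocation and glycosylation factors, 19 of 42 other ER folding factors and 22 of 43 cargo genes were lower in nuclear RNA, against 4 of 24 cytosolic chaperones, with medians of -1.24, -0.65, -0.76 and 0.10. With control siRNA the calls for the 35 genes numbered 13, 13 and 12 without the cytoplasmic library of batch 1, the cytoplasmic library of batch 2 and the nuclear library of batch 1.

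Total RNA exceeded both fractions in all 4 pairs of siRNA and batch for 8 of the 35 genes (22.9%), against 1733 of 13744 genes in all (12.6%) and 12 of 24 cytosolic chaperones (50.0%). CANX, one of these 8, was at 249.6 and 172.4 TPM in total, 61.6 and 49.3 TPM in nuclear and the values above in cytoplasmic RNA with TAOK2 siRNA, and at 248.3 and 162.3 TPM in total and 52.8 and 43.2 TPM in nuclear RNA with control siRNA, sums that carry the doubt on its models given above. The excess over the higher fraction ran from 0.05 to 0.32 on the log2 scale for SSR1, another of the 8, and from 0.79 to 2.21 for CANX. A mixture of the fractions alone would lie between them, and the reason for the excess was not tested. Levels in total RNA and in the fractions are therefore not treated as lying on one scale.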

How the data were processed

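Transcript abundances were deposited by the authors as TPM, 1 table for whole cells and 1 for the fractions. Per the submitters' processing notes they were made with kallisto on GRCh38.p14 (version: not given in the sources used here). Per the labels' protocols, RNA had an integrity number above 6.0, and polyA libraries were read as 150-base pairs. The TPM tables keep no depth, so no counting interval was computed. Of 188753 transcripts, 169797 (89.96%) matched GENCODE 29, carrying 97.0% to 98.3% of TPM, and were summed by gene. Genes averaging at least 1 TPM were tested as log2(TPM + 1), where 1 TPM is the pseudocount, with limma 3.58.1 (statmod 1.5.0, R 4.3.3; trend and robust empirical Bayes), all 12 libraries of a table in 1 fit and Benjamini-Hochberg adjustment over all genes. Fold changes on this scale understate the change of low genes. Transcript shares were tested as log2 odds with 0.5 TPM added, for genes of at least 5 TPM and transcripts of at least 5% of the gene. The fit was checked on simulated data.

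The labels give the same batches to each group, so same-numbered libraries can be paired. Residuals of same-batch libraries correlated at -0.30 to 0.64 in whole cells (12 of 18 pairs over 0.1) and at 0.53 to 0.84 in fractions (30 of 30). The main fits held the group only and did not use this pairing, which entered as the block. A gene without a call in the main fit of the fractions is therefore not shown to be unchanged. The alternatives were the batch as a block, another pseudocount, no filter, other scalings, protein-coding transcripts only, only the groups compared, plain empirical Bayes and leaving out each library. The members and lists were chosen with earlier results of these data known. Values in every library are given for the 12 members with the smallest adjusted p under compound 2, the 6 smallest under knockdown, HSPA5, XBP1, ATF6, ERN1 and EIF2AK3 always, the 5 largest nuclear minus cytoplasmic differences on each side with control siRNA, and, of other lists, examples among up to 4 genes that passed with the smallest adjusted p, with ATF4 and DDIT3 always; others shown were picked after their values were seen.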

Additional observations from a re-analysis of the deposited data

Results flagged for a closer look

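For 6 of the 35 genes the knockdown change had one sign in every batch of whole cells and the opposite sign in both batches of total RNA from the fractionation experiment. This is set out as values. Whether the changes differ was not tested, since the experiments are separate tables, and of the changes named here only that of DNAJB9 in whole cells passed without the block, which added SDF2L1 and CALR there. The log2 change with TAOK2 siRNA against control siRNA was 0.49 in whole cells and -0.27 in total RNA for DNAJB9, -0.34 and 0.42 for SDF2L1, and 0.12 and -0.40 for HERPUD1. It was -0.22 and 0.17 for CALR, 0.06 and -0.66 for ERO1B, and 0.17 and -0.13 for SYVN1, again with whole cells first. SDF2L1 was at 9.38 and 4.99 TPM in total RNA with TAOK2 siRNA and at 5.43 and 4.37 TPM with control siRNA, and at 83.4, 62.8 and 67.5 TPM in whole cells with TAOK2 siRNA and 105.4, 89.0 and 77.4 TPM with control siRNA.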

How the results depend on the processing

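With the batch as a replicate block, the number of the 35 genes called under knockdown was 12 in whole cells, 2 in nuclear RNA and 2 in cytoplasmic RNA, with the genes given in the report; in transcript usage under compound 2 the block ended the calls of DNAJC3-201 and DNAJC3-202, and it ended no other call, while the genes it added stand beside each result. Fitting only the groups compared gave 11 genes for the whole-cell knockdown and 4 for nuclear minus cytoplasmic RNA with TAOK2 siRNA. Setting library medians equal gave 28 genes for the knockdown change minus the compound 2 change. With no filter on the share, 75 member transcripts changed usage under compound 2. The shares of all genes and transcripts in the report are from the main fits and do not apply to the counts given here. Leaving out 1 library at a time gave 4 to 8 genes for the whole-cell knockdown, 3 to 13 for control siRNA against DMSO, 12 to 14 for nuclear minus cytoplasmic RNA with control siRNA and 14 to 20 transcripts in usage under compound 2, and turned no direction. Under compound 2 the changes of DERL2, SELENOS, EDEM1 and DNAJB9 turned to 0.31, 0.23, 0.10 and 0.0727 with library medians set equal, and those of DERL2 and SELENOS to 0.15 and 0.0717 after centring on the median change. The knockdown minus compound 2 difference turned to -0.17 for SELENOS and -0.0163 for WFS1 with medians set equal, and to -0.0258 for SELENOS after centring. Protein-coding transcripts alone turned nuclear minus cytoplasmic RNA to -0.56 (TAOK2 siRNA) and -0.39 (control siRNA) for PDIA4 and to -0.0420 (control siRNA) for EDEM1. Apart from these scaling and model effects, the causes were not tested. TPM hides depth, and 2 libraries a group limit what the fractions can show.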
